A study of Mus musculus with 10 samples.

Results

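The comparison described here set 3 tail bud libraries of doxycycline-treated transgenic mouse embryos that lacked Cre against 3 tail bud libraries of wild-type embryos, so that Lin28a was induced on neither side. The 6 libraries were chosen by their labels, as the count columns ending in noCre and those naming wild type at E12.5, out of 10 in the series. All came from tail bud microdissected at E12.5, the age given for every sample of the series. Total RNA was sequenced as 75-base single reads. The no-Cre embryos (replicates 6, 7 and 8, n = 3) were treated with Dox and carried TRE-Lin28a, a Lin28a transgene driven by a doxycycline-responsive element, and RLSL-rtTA, an allele of the transactivator that doxycycline activates. The labels of the wild-type embryos (replicates 1, 2 and 3, n = 3) name no transgene and no doxycycline. The other group of the series (replicates 2 to 5, n = 4) had the no-Cre alleles and doxycycline plus FoxD1-Cre. Its values are given only beside the others.

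The labels give no strain, litter, integration site or sequencing date, and nothing in them says that each library is a separate embryo, so the tests below rest on library-to-library spread, which may be technical. In this design genotype, doxycycline, strain and batch cannot be told apart. Wild-type libraries held 21762668 to 25316537 counts and no-Cre libraries 29300166 to 38893332. Correlations of log2(CPM + 1) were 0.989 to 0.994 within wild type, 0.996 to 0.997 within no-Cre and 0.966 to 0.979 between the groups. CPM is a gene's count scaled to a common library size. By Xist and Ddx3y, transcripts of the inactive X and the Y chromosome, no-Cre replicate 7 was female (875 CPM and 0 CPM) and the other 5 libraries were male (Xist at most 0.811 CPM, Ddx3y at least 96.3 CPM). Wild-type replicate 2 stood apart in posterior genes, as given below.

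The tail bud is the growth zone at the posterior end of the embryo. Progenitors there, marked by T, Sox2 and Cdx genes and kept up by Wnt and FGF signals, feed the presomitic mesoderm, where a Notch-based clock sets the pace at which somites form. A dissected tail bud also holds the surface ectoderm that covers it, the tail end of the neural tube, notochord and gut, and blood vessels with the blood inside them. In bulk RNA, fewer cells of a type and less RNA per cell cannot be told apart.

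Across 16340 tested genes, 6938 (42.5%) passed the threshold, an adjusted p under 0.05 in the quasi-likelihood test of edgeR with Benjamini-Hochberg adjustment. Of these, 3435 were higher in no-Cre (21.0% of genes tested) and 3503 lower (21.4%). Most differences were modest. The median absolute log2 difference was 0.28 over all genes and 0.50 over those that passed, and 1839 genes (11.3%) passed with at least a 2-fold difference, 739 higher (4.52%) and 1100 lower (6.73%). The median log2 difference of all genes was -0.02, close to 0. In 8501 genes (52.0%) the values of the groups did not overlap, with no-Cre above in 25.8% and below in 26.2%. Counts for each gene list below read against these shares. Unless another test is named, every adjusted p is from edgeR, and differences are no-Cre minus wild type on the log2 scale ± SE.

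**Figure D1:**
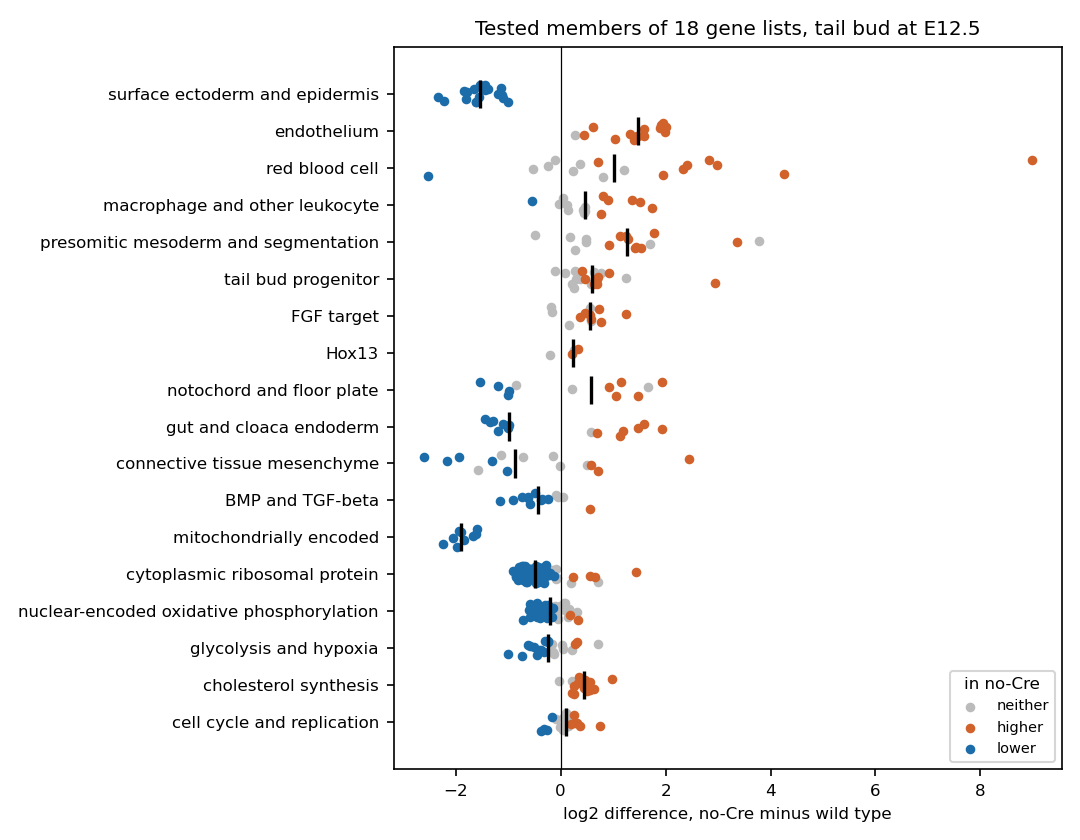
Log2 difference of each tested member of 18 gene lists, no-Cre minus wild type (x axis), with 1 row of points per list and a black bar at the list's median. Orange points were higher and blue points lower in no-Cre at an adjusted p under 0.05, and grey points did not pass. All 18 surface ectoderm genes lie left of 0 and all 15 endothelial genes right of it.

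Genes of the surface ectoderm, the epithelium that becomes epidermis, were lower in the no-Cre tail buds without exception. All 18 list members were tested, all 18 fell (21.4% of all genes did), each by at least 2-fold, and the median log2 difference was -1.54. Summed over the list, the level ran from 1566 to 2001 CPM in wild type and from 602 to 651 CPM in no-Cre. Leaving out any 1 library left all 18 called. How much of each tissue entered a dissection is not in the labels, and its part in this and the following differences was not tested. The genes cover the keratins of the basal layer, the transcription factors that specify it and the junctions that hold it together.

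Krt5, the basal keratin that pairs with Krt14, read 169, 213 and 187 CPM in the wild-type libraries, in the order of replicates 1 to 3, and 35.3, 44.4 and 32.7 CPM in the no-Cre libraries, in the order of replicates 6 to 8. The same order is kept below. No no-Cre library came near the lowest wild-type value, and Krt5 differed by -2.34 ± 0.14 (adjusted p = 8.34e-07). Krt14 read 45.7, 57.4 and 72.9 CPM against 11.3, 14.5 and 11.7 CPM, a difference of -2.23 ± 0.16 (adjusted p = 8.22e-07). Trp63, the master regulator of stratified epithelium, read 109, 141 and 95.9 CPM against 40, 42 and 44.9 CPM (-1.45 ± 0.12, adjusted p = 2.93e-06). Cdh1, which encodes E-cadherin, the adhesion molecule of epithelia, read 254, 301 and 237 CPM against 86.7, 90.0 and 81.4 CPM (-1.62 ± 0.11, adjusted p = 3.43e-07). Wild-type replicate 2 was the highest library for Krt5, Trp63 and Cdh1. Wnt6, a Wnt ligand of ectoderm, differed by -1.83 ± 0.15, and the Grainyhead factor gene Grhl2 by -1.55. The smallest fall in the list was that of Epcam, an epithelial adhesion gene, at -1.01 ± 0.12.

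Neural crest genes that passed were lower in no-Cre. The neural crest list summed to 488 to 543 CPM in wild type and 261 to 263 CPM in no-Cre, but of its 10 tested members only 3 fell and none rose (3 and 1 without wild-type replicate 2). Tfap2b, an AP-2 factor gene of crest and ectoderm, had the largest fall of the list: 161, 210 and 154 CPM against 26.9, 26.6 and 29.7 CPM (-2.66 ± 0.11, adjusted p = 2.37e-09). Tfap2a, its paralog, which surface ectoderm also expresses, fell by 1.31 ± 0.17, and Erbb3, a neuregulin receptor gene, by 1.44 ± 0.12. The crest genes Ednrb and Ngfr did not pass (-0.21 and -0.20), and Sox10 was too low to be tested. Of 8 limb bud genes tested, Tfap2b and Msx2 fell and Pitx1, a hindlimb gene, rose (1.05 ± 0.25), while Tbx4, Tbx5, Shox2 and Hand2 were too low to be tested. Limb counts were 2 higher, with 2 or 3 lower, without no-Cre replicate 8 or any 1 wild-type library.

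Blood vessel genes moved the other way. Of 15 endothelial genes, 14 rose (21.0% of all genes did), none fell and Ets1 alone did not pass, and the median log2 difference was 1.47. The list summed to 170 to 278 CPM in wild type and 499 to 550 CPM in no-Cre. Leaving out any 1 library left 14 called, and all 15 were above every wild-type library in all 3 no-Cre libraries.

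Kdr, the receptor gene for VEGF on endothelium, read 17.1, 10.1 and 23.5 CPM in wild-type replicates 1, 2 and 3 and 68.9, 63.4 and 69.3 CPM in no-Cre, a difference of 2.0 ± 0.26 (adjusted p = 0.000522). Cdh5, which encodes VE-cadherin, read 24.7, 13.4 and 34.7 CPM against 92.0, 84.5 and 96.1 CPM (1.91 ± 0.30, adjusted p = 0.00169). Plvap, a gene of the diaphragms in capillary walls, read 9.34, 4.99 and 14.3 CPM against 40.3, 36.5 and 38.1 CPM (2.01 ± 0.30, adjusted p = 0.000944). Wild-type replicate 2 was the lowest library for Kdr, Cdh5 and Plvap. The smaller members were Egfl7, a secreted endothelial factor gene (0.45 ± 0.10), and Ets1 (0.27 ± 0.11, adjusted p = 0.0609). Vwf, the gene of the clotting factor that endothelium and platelets store, was outside the list and among the 15 largest rises, from 1.27, 1.78 and 1.79 CPM to 26.5, 18.9 and 22.5 CPM (3.81 ± 0.27, adjusted p = 1.39e-06). Klf2, a gene that blood flow induces in endothelium, rose from 0.0795, 0.365 and 0.413 CPM to 3.83, 2.86 and 3.36 CPM (3.56 ± 0.35, adjusted p = 4.71e-06).

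**Figure D2:**
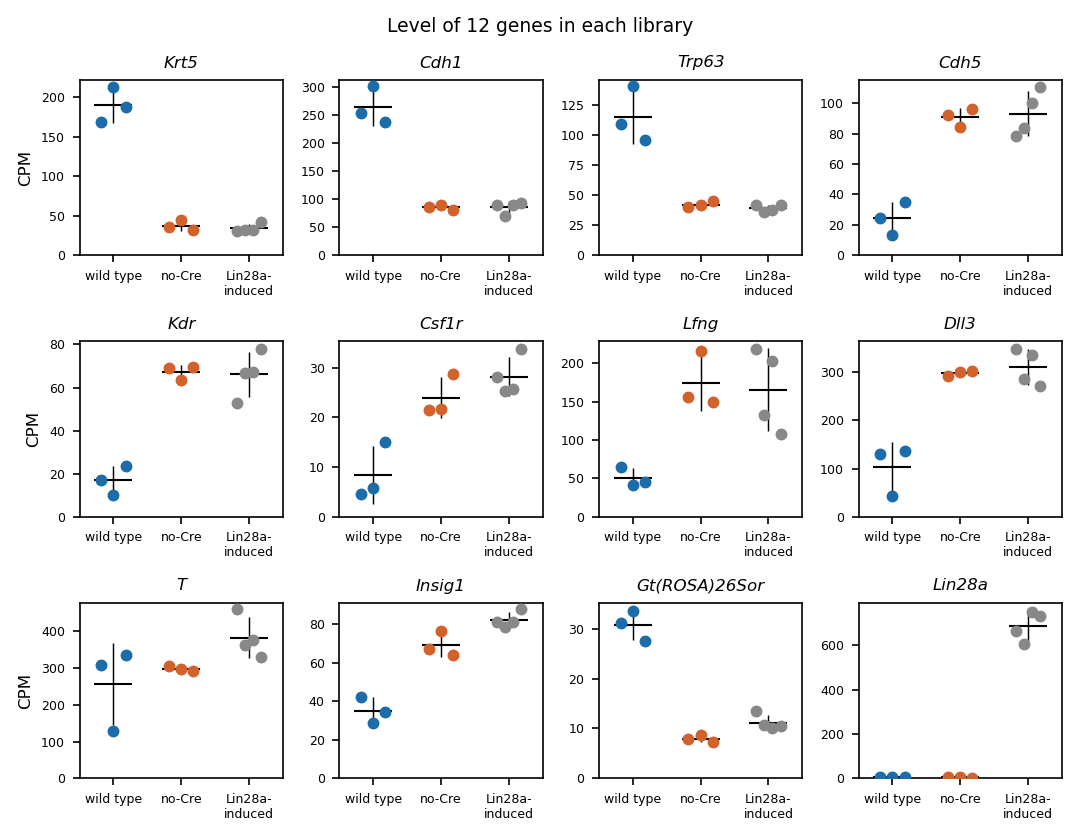
CPM of 12 genes in each library (y axes from 0), in wild type (blue), no-Cre (orange) and, for orientation, the Lin28a-induced group (grey). Bars mark the mean and SD. Krt5, Cdh1, Trp63 and Gt(ROSA)26Sor were lower and Cdh5, Kdr, Csf1r, Lfng, Dll3 and Insig1 higher in no-Cre, while T and Lin28a did not pass the test between no-Cre and wild type.

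Red blood cells in the embryo first come from the yolk sac and make embryonic globins, and cells that later come from the liver make adult globins. The total level of globin overlapped between the groups, while the shares of some globin genes in it did not. Summed globins of the beta type read 2309, 6683 and 5120 CPM in wild type and 6849, 5803 and 4185 CPM in no-Cre, with wild-type replicate 1 lowest. Summed alpha-type globins read 410, 1297 and 943 CPM against 2391, 2073 and 1284 CPM, so that only wild-type replicate 2 and no-Cre replicate 8 overlapped. All globins together took 0.563% ± 0.273 (SD, n = 3) of counts in wild type and 0.746% ± 0.187 (n = 3) in no-Cre (exact permutation test, two-sided p = 0.5). With 3 libraries against 3 this test cannot go below 0.1.

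Among beta-type globin CPM, Hbb-bh1, an embryonic globin gene, made up 1.78%, 1.44% and 1.67% in wild-type replicates 1, 2 and 3 and 9.76%, 10.2% and 7.49% in no-Cre. Hbb-bs, an adult globin gene, made up 5.22%, 6.83% and 6.98% against 0.970%, 0.758% and 1.21%. For both genes the groups lay far apart and the exact permutation p was 0.1, the smallest possible. Hbb-y, the main embryonic beta-type gene, held 88.7% to 90.9% of the total in wild type and 87.1% to 89.1% in no-Cre (exact p = 0.3). Hbb-bt, the adult gene next to Hbb-bs, held 2.06% to 2.77% and 1.96% to 2.16% (exact p = 0.2).

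Among alpha-type globins, the embryonic Hba-x held 41.2%, 39.1% and 40.9% of CPM in wild type and 71.3%, 73.7% and 67.0% in no-Cre. The adult genes Hba-a1 and Hba-a2 lie in tandem and are near-identical. Hba-a1 held 58.8% to 60.8% in wild type and 17.7% to 21.8% in no-Cre, and Hba-a2 held 0% to 0.0531% and 8.53% to 11.2%. Counting can split reads between these copies, so their sum is the safer value: 58.8%, 60.9% and 59.1% against 28.7%, 26.3% and 33.0% (exact p = 0.1). Of the 32-base words in Hbb-bs and Hbb-bt, 54.4% and 59.4% recur in another annotated gene, and of those in Hba-x, Hbb-y and Hbb-bh1 none do. The sum of Hbb-bs and Hbb-bt was 168, 642 and 492 CPM against 203, 157 and 141 CPM, which overlap. The log2 ratio of the means of that sum was -1.38, against -2.54 ± 0.50 for Hbb-bs alone.

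**Figure D3:**
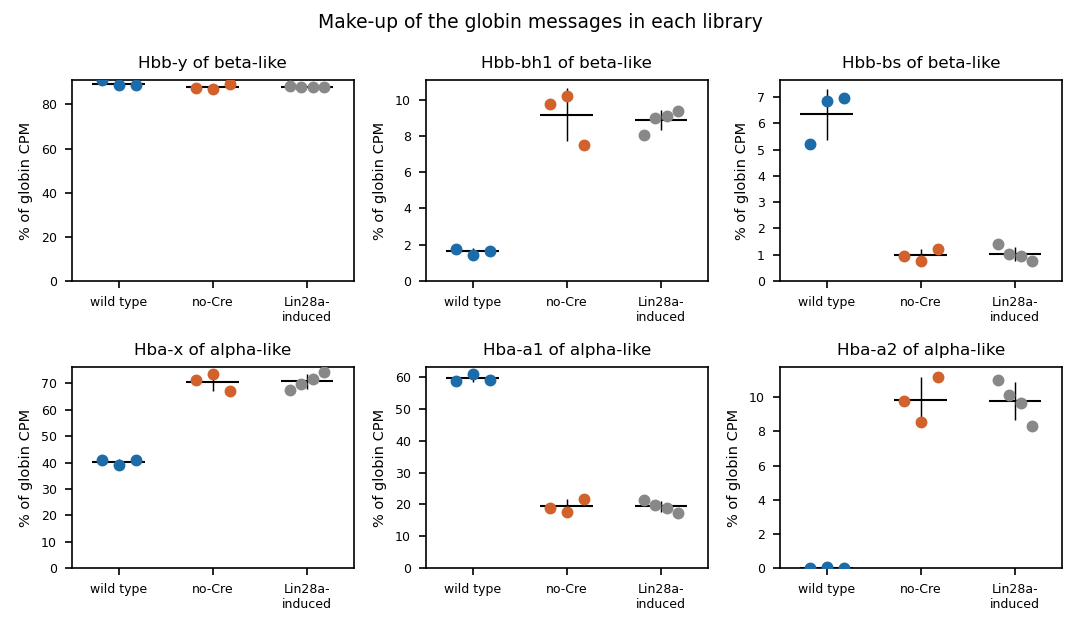
Share of each globin gene in the summed CPM of beta-type (top row) or alpha-type globins (bottom row), as a percent per library, with mean and SD bars. In no-Cre, Hbb-bh1 lies at 7.49% to 10.2% and Hba-x at 67.0% to 73.7%, above every wild-type library, and Hbb-bs lies at 0.758% to 1.21%, below every wild-type library.

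Of 16 red cell genes tested, globins included, 8 rose, only Hbb-bs fell and 7 did not pass, with a median log2 difference of 1.01. The count of falls was 2 without no-Cre replicate 7 or wild-type replicate 1 or 3. Hemgn, a gene of red cell precursors, read 0.0795, 0.892 and 0.643 CPM against 12, 14.5 and 4.32 CPM (4.26 ± 0.74, adjusted p = 0.00218). Klf1, the erythroid Kruppel-like factor that also acts on globin genes, read 0.278, 0.690 and 0.735 CPM against 5.16, 5.81 and 2.27 CPM (2.97 ± 0.45, adjusted p = 0.000277). Slc4a1, the anion exchanger gene of the red cell membrane, read 25.2, 56.4 and 41.0 CPM against 248, 226 and 146 CPM (2.34 ± 0.37, adjusted p = 0.00197). In each of Hemgn, Klf1 and Slc4a1 the groups did not overlap and no-Cre replicate 8 was the lowest of its group. The heme synthesis gene Alas2 (0.36 ± 0.46) and the transferrin receptor gene Tfrc (-0.24 ± 0.10) did not pass. Rhd and Ermap, red cell surface genes outside the list, were among the 15 largest rises, at 3.66 ± 0.48 and 3.56 ± 0.32.

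Promoters of beta-type globin genes are known to carry a CCAAT box, and those of adult ones a CACCC box, which Klf1 binds. The promoter of Hbb-bs is shown because Hbb-bs fell, and that of Hbb-y as a neighbour that did not pass. The excerpts are RefSeq sequence of GRCm38.p6, on the strand of the gene, with the searched letters in capitals: CCACACCC in the first and CCAAT in the others. The Hbb-bs excerpts are chr7:103828003-103828032 and chr7:103827987-103828016, and the Hbb-y excerpt is chr7:103853273-103853302, all on the minus strand.
Hbb-bs CACCC: attccgtagagCCACACCCtggtaagggcc
Hbb-bs CCAAT: ccctggtaagggCCAATctgctcacacagg
Hbb-y CCAAT: gggtcaggctgaCCAATagcttcaaagaat
Within 250 bases before and 50 after the start, on either strand, CCACACCC occurred in 1 of the 12 red cell genes with a RefSeq promoter entry, Hbb-bs, and in 4.09% of 27025 genes. AGATAA, a form of the GATA site, occurred in 4 of the 12 and in 12.7% of genes. A match says only that the letters are there.

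Macrophage and platelet genes leaned upward with less support. Of 15 macrophage and leukocyte genes, 6 rose and Mrc1, a mannose receptor gene, fell (-0.55 ± 0.14), with a median of 0.46, and between 3 and 9 rose when 1 library was left out. The count was 3 without no-Cre replicate 6, no-Cre replicate 8, wild-type replicate 1 or wild-type replicate 2. Spi1, which encodes the myeloid factor PU.1, read 1.23, 0.730 and 2.57 CPM against 5.06, 4.2 and 5.66 CPM (1.74 ± 0.31, adjusted p = 0.0007). Csf1r, the receptor gene that macrophages need to survive, read 4.53, 5.72 and 15.1 CPM against 21.5, 21.6 and 28.8 CPM (1.52 ± 0.40, adjusted p = 0.0164, and 0.0641 without wild-type replicate 2). The pan-macrophage genes Cd68, Aif1, Tyrobp and C1qa did not pass. Of 8 megakaryocyte genes 3 rose, and none did without no-Cre replicate 7 or without wild-type replicate 2, while 1 did without wild-type replicate 1 or 3.

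Presomitic mesoderm genes that passed were higher in no-Cre, while the progenitor gene T did not pass. Of 16 presomitic and segmentation genes, 9 rose and none fell (median 1.26), and 6 to 9 rose when 1 library was left out. The list summed to 1025, 626 and 1016 CPM in wild-type replicates 1, 2 and 3 and to 1989, 2363 and 2059 CPM in no-Cre. Of 20 tail bud progenitor genes, 8 rose and none fell (median 0.61), with sums of 2106, 1140 and 2138 CPM against 2488, 2483 and 2683 CPM. Wild-type replicate 2 was far below its group in both sums. Without it the progenitor median was 0.33, with 10 rises and 1 fall, and the presomitic median was 1.16, with 8 rises.

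The receptor and transcription factor of Notch signalling rose evenly. Notch1 read 209, 184 and 220 CPM against 513, 618 and 534 CPM (1.44 ± 0.08, adjusted p = 3.46e-08). Rbpj, the DNA-binding partner of Notch, read 25.5, 24.5 and 27.8 CPM against 64.8, 65.7 and 59.0 CPM (1.28 ± 0.07, adjusted p = 8.82e-09). Its near-identical copy Rbpsuh-rs3 differed by -3.567. The sum of Rbpj and Rbpsuh-rs3 had means of 32.06 CPM in wild type and 63.65 CPM in no-Cre. The log2 ratio of these means was 0.9896, less than the difference of Rbpj alone. Whether reads passed from Rbpsuh-rs3 to Rbpj was not tested. For Notch1 and Rbpj wild-type replicate 2 lay close to its group. The ligand gene Dll3 read 129, 43.7 and 136 CPM against 291, 300 and 303 CPM (1.53 ± 0.38, adjusted p = 0.0135). Lfng, the glycosyltransferase gene that makes Notch cycle in the presomitic mesoderm, read 65.2, 41.2 and 44.9 CPM against 157, 216 and 150 CPM (1.79 ± 0.33, adjusted p = 0.0035). Hes7, the cycling repressor of the clock, rose by 1.13 ± 0.36 (adjusted p = 0.03875), a call that no fit with 1 library left out kept. Mesp2, which marks the next somite border and is on for part of each cycle, read 1.51, 4.30 and 1.28 CPM against 9.83, 81.8 and 6.90 CPM, and with no-Cre replicate 7 so far above the rest it did not pass (3.78 ± 1.58, adjusted p = 0.0948).

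Among progenitor genes, T, the Brachyury gene, read 307, 127 and 334 CPM in wild-type replicates 1, 2 and 3 and 306, 296 and 291 CPM in no-Cre (0.22 ± 0.32, adjusted p = 0.619). Wild-type replicates 1 and 3 were thus as high as the no-Cre libraries and replicate 2 was below them all. Wnt3a (48.8, 14.3 and 44.4 CPM against 51.1, 41.6 and 46.0 CPM) and Fgf8 (13.7, 2.56 and 9.82 CPM against 9.96, 8.90 and 8.61 CPM) also had their lowest value in wild-type replicate 2 and did not pass. The caudal gene Cdx2, by contrast, read 54, 42.5 and 40 CPM against 79.9, 70.2 and 72.0 CPM (0.70 ± 0.11, adjusted p = 0.000291). Cdx1 was low in both groups and rose from 0.398, 0.162 and 0.230 CPM to 2.84, 2.20 and 1.06 CPM (2.94 ± 0.45, adjusted p = 0.000193). Cyp26a1, which clears retinoic acid from the tail bud, rose by 0.72 ± 0.15 (adjusted p = 0.00227) and Sox2 by 0.47 ± 0.12 (adjusted p = 0.0102).

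Somite genes went in both directions. Of 11 tested, 4 rose and 3 fell, and without wild-type replicate 2 there were 4 rises and 1 fall. Foxc2, a forkhead gene of presomitic and somitic mesoderm, read 24.3, 34.9 and 31.6 CPM against 155, 172 and 138 CPM (2.36 ± 0.14, adjusted p = 2.73e-07). Tcf15, the gene of epithelial somites, rose by 1.53 ± 0.23 (adjusted p = 0.00108). The sclerotome gene Pax1, on once somites have matured, read 9.42, 16.6 and 6.52 CPM against 1.56, 1.22 and 0.343 CPM (-3.34 ± 0.66, adjusted p = 0.00381). Meox2, a further gene of formed somites, fell by 1.67 ± 0.44, and did not pass without no-Cre replicate 7 or wild-type replicate 2. Of 16 skeletal muscle genes only 7 could be tested, of which Myl1 and Myf5 fell (-2.50 ± 0.32 and -1.53 ± 0.38), and Myod1, Myog and Pax7 were too low to be tested.

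The notochord and gut lists, both made of epithelial tissues, split along their members. Of 12 notochord and floor plate genes 5 rose and 4 fell, and of 15 gut and cloaca genes 6 rose and 8 fell. The keratins Krt8, Krt18 and Krt19 fell in both (-1.0 ± 0.08, -0.98 ± 0.11 and -1.19 ± 0.09), and so in the gut list did Epcam and Trp63, which the surface ectoderm list also holds. Some genes of endoderm and the axial midline rose. Foxa2, the forkhead gene of notochord, floor plate and gut, read 0.994, 1.01 and 2.11 CPM against 5.74, 4.44 and 5.35 CPM (1.93 ± 0.27, adjusted p = 0.000103). Shh, the ligand gene of the same midline tissues, read 5.25, 5.56 and 13.7 CPM against 24.8, 21.5 and 21.0 CPM (1.47 ± 0.31, adjusted p = 0.00503). Foxa1, of endoderm, rose by 1.18 ± 0.28. Noto, specific to the node and notochord, read 2.03, 0.243 and 5.78 CPM against 9.72, 7.89 and 7.28 CPM and did not pass (adjusted p = 0.0758).

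Collagen genes went in both directions. Col1a1, the type I collagen gene, read 28.2, 38.5 and 52.5 CPM against 8.68, 5.57 and 5.18 CPM (-2.60 ± 0.36, adjusted p = 0.000572). Col3a1 fell by 2.17 ± 0.19 and Col1a2 by 1.30 ± 0.26. Col6a3, a type VI collagen gene, went from 0.636, 2.27 and 1.10 CPM to 8.37, 6.46 and 7.07 CPM (2.44 ± 0.32, adjusted p = 6.21e-05). Over 28 collagen genes, 10 rose and 8 fell, and over 14 connective tissue genes, 3 rose and 5 fell.

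Nerve genes also split. Of 11 neuron genes tested 1 rose and 3 fell. Nefm, a neurofilament gene, read 11.7, 10.8 and 10 CPM against 2.32, 1.82 and 1.72 CPM (-2.47 ± 0.24, adjusted p = 4.84e-06), and Nefl, its partner, fell by 1.75 ± 0.20. Stmn2, a growth cone gene, rose to 2.06, 1.22 and 0.789 CPM from 0.199, 0.243 and 0.413 CPM (2.27 ± 0.46). In the neural tube list of 8 tested genes, the Notch target Hes5 and the progenitor gene Sox3 rose (2.28 ± 0.41 and 1.5 ± 0.20), and Irx3 fell (-1.72 ± 0.25). Markers of liver or yolk sac and of placenta, which a dissection could carry along, did not pass: 0 of 9 and 0 of 4 tested genes, although 2 liver or yolk sac genes rose without wild-type replicate 2. Such RNA varied between libraries within each group. Afp, the alpha-fetoprotein gene, read 0.437, 41.9 and 1.88 CPM in wild-type replicates 1, 2 and 3 and 23.8, 0.0893 and 1.72 CPM in no-Cre replicates 6, 7 and 8.

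Signalling genes were read as targets of 4 pathways that pattern the tail bud. Of 12 FGF targets 7 rose and none fell (median 0.56), and 5 to 9 rose when 1 library was left out. Dusp4, a phosphatase gene that FGF signalling turns on and that in turn damps it, read 157, 63.6 and 151 CPM against 305, 253 and 328 CPM (1.25 ± 0.31, adjusted p = 0.0141). Etv5, an ETS factor gene downstream of FGF, rose by 0.78 ± 0.19, and Fgf8 itself did not pass, as given above. Of 14 BMP and TGF-beta genes 10 fell and only Gdf11 rose (median -0.43), with 7 to 9 lower when 1 library was left out. Bmp4, a ligand gene of that pathway, read 33.3, 29.9 and 37.4 CPM against 17.5, 23.5 and 26.2 CPM (-0.58 ± 0.13, adjusted p = 0.00254). Its targets Id3 and Msx2 fell by 0.48 ± 0.09 and 1.16 ± 0.21. Gdf11, the ligand that moves the trunk programme on to the tail, rose by 0.56 ± 0.20 (adjusted p = 0.0456), and did not pass when any 1 of the no-Cre libraries was left out.

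Wnt targets were mixed, with 4 higher and 3 lower of 12. Lef1, the transcription factor gene that Wnt both uses and induces, read 196, 110 and 203 CPM against 451, 446 and 515 CPM (1.47 ± 0.21, adjusted p = 0.000644), while the feedback gene Axin2 did not pass (0.18 ± 0.11). Of 12 retinoic acid genes 6 rose and 2 fell. Crabp1, a retinoic acid binding protein gene, rose by 1.19 ± 0.27, and the receptor gene Rarb fell by 1.349 ± 0.37, a call lost without no-Cre replicate 6 or wild-type replicate 2. The retinoic acid count was 5 higher and 1 lower without no-Cre replicate 6 or 7 or wild-type replicate 1 or 2.

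Hox genes, whose later paralog groups switch on toward the tail, differed in both directions and mostly by little. Of the Hox13 genes, which end the axis, Hoxa13 read 88.7, 79.4 and 96.9 CPM against 100, 99.2 and 110 CPM (0.22 ± 0.07, adjusted p = 0.0189). Hoxc13 differed by 0.32 ± 0.11 (adjusted p = 0.0365). Neither held without no-Cre replicate 8, and Hoxc13 also failed without no-Cre replicate 6 or 7 or wild-type replicate 3. Hoxb13 (0.25 ± 0.22) and Hoxd13 (-0.21 ± 0.17) did not pass. Of 8 genes of groups 10 to 12, 1 rose and 3 fell, and of 26 genes of groups 1 to 9, 3 rose and 9 fell. The count for groups 1 to 9 was 3 and 5 without no-Cre replicate 8, 5 and 6 without wild-type replicate 1, and 5 and 9 without wild-type replicate 3. For groups 10 to 12 it was 0 and 3 without no-Cre replicate 6 or 8 and 2 and 3 without wild-type replicate 1. The larger differences were in group 1, where Hoxd1 read 6.60, 5.03 and 6.29 CPM against 23.1, 16.9 and 17.8 CPM (1.69 ± 0.16, adjusted p = 3.4e-06) and Hoxb1 rose by 1.47 ± 0.33. Hoxa9 (104, 140 and 104 CPM against 70.0, 72.2 and 61.4 CPM) fell by 0.77 ± 0.13.

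Lin28a, the gene that the transgene carries, did not pass the test, at 6.16, 5.72 and 4.45 CPM against 5.03, 4.53 and 2.64 CPM (-0.41 ± 0.22, adjusted p = 0.161). In the Lin28a-induced libraries it read 605 to 750 CPM. Lin28b, the paralog, read 23.7, 23.6 and 17.9 CPM against 35.1, 33.2 and 25.6 CPM (0.52 ± 0.15, adjusted p = 0.0167, and up to 0.06335 with 1 library left out). Lin28 proteins block maturation of let-7 microRNAs, which repress a set of growth genes. Of 26 such let-7 targets tested 13 rose and 4 fell, with a median of 0.22 against -0.02 over all genes. Trim71, a let-7 target of early progenitors, read 44.6, 38 and 33.6 CPM in wild type and 74.5, 67.2 and 58.9 CPM in no-Cre (0.79 ± 0.13, adjusted p = 0.000895), with 132 to 180 CPM in the Lin28a-induced libraries. Fignl2, another listed target, read 59.4, 58.8 and 59.1 CPM against 122, 113 and 98.8 CPM (0.92 ± 0.10, adjusted p = 1.76e-05), with 162 to 217 CPM in the Lin28a-induced libraries. Nr6a1, also a listed target, went the other way (-0.69 ± 0.16). Of 14 Lin28 and microRNA processing genes, 5 rose and none fell, among them Drosha (0.48 ± 0.09), the nuclease gene that starts microRNA maturation.

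The loci of the alleles and of the Cre driver were read as a check. Gt(ROSA)26Sor, the transcript of the locus into which many mouse transgenes are placed (chromosome 6, 113067428 to 113077333, minus strand, mm10), read 31.2, 33.6 and 27.6 CPM in wild type and 7.87, 8.70 and 7.275 CPM in no-Cre, a difference of -1.952 ± 0.12 (adjusted p = 6.94e-08). It read 10.1 to 13.4 CPM in the Lin28a-induced libraries. Its neighbours Setd5 (0.11 ± 0.07) and Thumpd3 (0.07 ± 0.06) did not pass, and of the 79 tested genes within 5 Mb of Gt(ROSA)26Sor 34.2% passed. Col1a1, at another common transgene site, fell as given above, and 38.8% of 147 genes within 5 Mb of it passed. Around Lin28a it was 52.1% of 188 genes, and around Foxd1 50% of 70. Over all tested genes 42.5% passed, so the shares at these loci lay on both sides of it. Foxd1 itself did not pass (0.38 ± 0.20, adjusted p = 0.149). The labels do not say where the transgenes sit.

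Mitochondrially encoded transcripts took 2.02%, 2.69% and 1.85% of counts in wild-type replicates 1, 2 and 3 and 0.525%, 0.610% and 0.586% in no-Cre, means of 2.19% ± 0.442 and 0.574% ± 0.0434 (exact permutation p = 0.1). All 9 tested mitochondrial genes fell, with a median of -1.90 and a range from -2.25 (mt-Nd1) to -1.60 (mt-Nd6). They include mt-Rnr1 and mt-Rnr2, the ribosomal RNAs of the mitochondrion (-1.90 ± 0.19 and -1.62 ± 0.18). The other 6 listed, mt-Nd3, mt-Nd4l, mt-Co2, mt-Co3, mt-Atp6 and mt-Atp8, did not pass the filter on low counts in this table.

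Cytoplasmic ribosomal protein genes fell by less but nearly together. Of 79 tested, 68 fell and 4 rose, with a median of -0.50, and their share of counts was 4.88% ± 0.390 against 3.55% ± 0.0768 (exact permutation p = 0.1). Rpl35 fell from 269, 295 and 247 CPM to 146, 145 and 141 CPM (-0.91 ± 0.07, adjusted p = 6.05e-07). The rises were Rpl29, Rps2, Rpl34 and Rpl26. Rpl26 differed by 0.24 ± 0.07, but its sum with the near-identical copy Gm15772 was 346 ± 32.5 CPM in wild type and 269 ± 7.81 CPM in no-Cre, so the rise turned into a lower value once the copy was counted. Rpl29 went from 57.7, 62.7 and 53.9 CPM to 159, 160 and 153 CPM (1.44 ± 0.07, adjusted p = 2.49e-09). Of the 32-base words of Rpl29 and Rps2, 44.1% and 48.5% recur in other genes. Of 39 nuclear genes for oxidative phosphorylation 21 fell and 2 rose (median -0.20), Cox7c, a cytochrome oxidase subunit gene, by 0.73 ± 0.07. Without wild-type replicate 3 the count was 21 and 5, and with GC and length offsets it was 17 and 7, with a median of -0.07. Of 21 genes of glycolysis and the hypoxia response 12 fell and 2 rose (median -0.25), and 8 and 1 without no-Cre replicate 6. The rises were also down to 1 without no-Cre replicate 8 or wild-type replicate 2 or 3. Vegfa, which hypoxia induces and which drives vessel growth, read 61.9, 73.7 and 57.2 CPM against 42.9, 42.4 and 43.4 CPM (-0.58 ± 0.09, adjusted p = 0.000142).

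**Figure D4:**
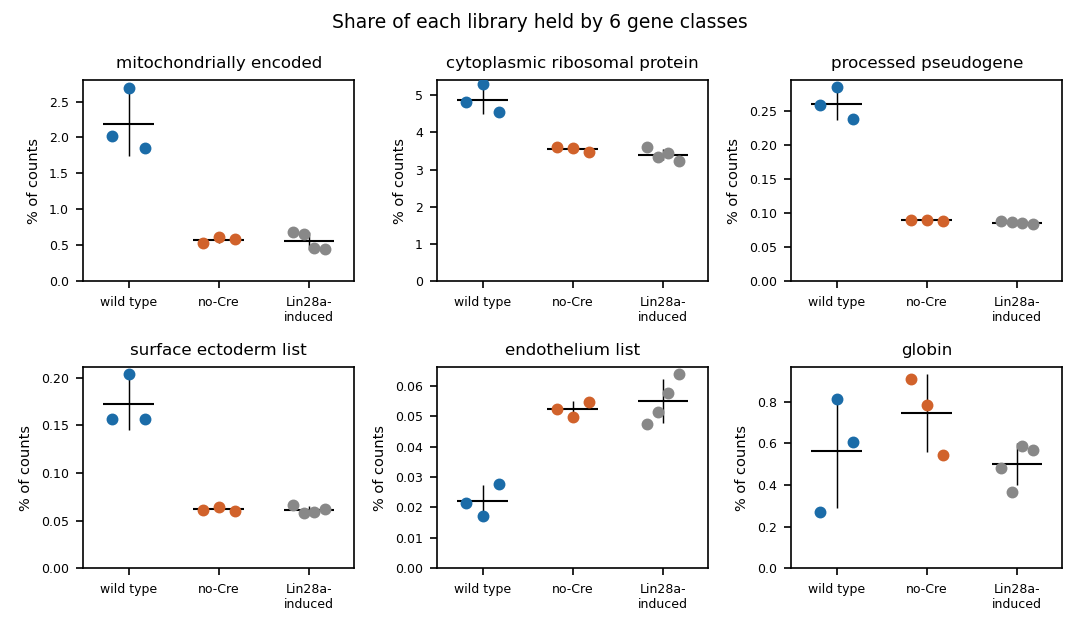
Percent of all counts taken by 6 gene classes in each library (y axes from 0), with mean and SD bars. Mitochondrially encoded, ribosomal protein, processed pseudogene and surface ectoderm counts are higher in all 3 wild-type libraries than in any no-Cre library, endothelial counts are lower, and globin counts overlap.

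Nearly all genes of cholesterol synthesis rose in no-Cre, by small steps. SREBP2, the product of Srebf2, switches these genes on when sterol runs low. Of 17 genes tested 15 rose and none fell (21.0% of all genes rose), with a median of 0.44, and 13 to 16 rose when 1 library was left out. The list summed to 1566 to 1871 CPM in wild type and 2214 to 2487 CPM in no-Cre. The exceptions were Sc5d (0.22 ± 0.09, adjusted p = 0.0638) and Nsdhl (-0.02 ± 0.07), both late enzymes of the pathway.

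Their promoters are shown because the genes moved together. Excerpts are RefSeq sequence of GRCm38.p6 on the gene's strand, with the letters searched in capitals: CCAAT or its reverse complement ATTGG, the box of the factor NF-Y, and TCACNCCAC, a form of the sterol regulatory element that SREBP2 binds. They lie at chr5:28071184-28071213 (plus), chr5:4104709-4104738 (minus), chr7:143830153-143830182 (plus), chr13:119690294-119690323 (plus) and chr13:119690204-119690233 (plus), in this order.
Insig1 CCAAT: cgccctcctcccATTGGctccggcggcctc
Cyp51 CCAAT: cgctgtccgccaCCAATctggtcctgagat
Dhcr7 CCAAT: aatccacttccgATTGGtcgtctgtgacct
Hmgcs1 CCAAT: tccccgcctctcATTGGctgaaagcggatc
Hmgcs1 sterol element: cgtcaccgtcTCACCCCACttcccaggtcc
Of the 17 tested genes 11 had a RefSeq promoter entry (250 bases before to 50 after the start). A CCAAT box on either strand occurred in all 11, also in Nsdhl and Sc5d, and in 41.1% of 27025 genes. The sterol element in these letters occurred in 1 of the 11, Hmgcs1, and in 1.44% of all genes.

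Insig1, the sterol sensor gene that holds SREBP in the endoplasmic reticulum and is itself an SREBP target, had the largest rise of the list. It read 42.3, 28.7 and 34.3 CPM against 67.2, 76.5 and 64.2 CPM (0.98 ± 0.12, adjusted p = 4.59e-05). Cyp51, the lanosterol demethylase gene, read 158, 145 and 163 CPM against 222, 240 and 201 CPM (0.51 ± 0.07, adjusted p = 0.000121). For Insig1 and Cyp51 every no-Cre library was above every wild-type library. Dhcr7 (0.34 ± 0.07) and Hmgcs1 (0.26 ± 0.06) rose by less.

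Cell cycle, heat shock and immediate early lists showed no common direction, while most p53 targets that passed were lower. Of 25 cell cycle genes 6 rose and 4 fell (median 0.11), and 3 rose with 2 or 3 falls without no-Cre replicate 6 or 7. Rrm2, a ribonucleotide reductase gene, read 322, 230 and 287 CPM against 482, 497 and 439 CPM (0.76 ± 0.10), and Tyms, thymidylate synthase, read 163, 165 and 158 CPM against 130, 122 and 121 CPM (-0.38 ± 0.05). Of 11 p53 targets 6 fell (54.5%, against 21.4% of all genes) and 1 rose (2 without wild-type replicate 1 or 2). Their median was -0.36, and 5 or 6 fell when 1 library was left out. Cdkn1a, the p21 gene, read 28.1, 26.2 and 23.1 CPM against 19.1, 16.9 and 14.8 CPM (-0.60 ± 0.11, adjusted p = 0.000901). Of 12 heat shock genes 2 rose and 4 fell (median -0.05), with 4 rises without wild-type replicate 1 and 1 without wild-type replicate 2. Among them Hspa1a and Hspa1b, which respond to handling of tissue, fell by 2.18 ± 0.38 and 1.85 ± 0.23. Of their 32-base words 65.2% and 67.7% recur in other genes. The sum of Hspa1a and Hspa1b was 10.8 ± 3.47 CPM (SD) in wild type and 2.89 ± 0.252 CPM in no-Cre. Of 14 immediate early genes, which also respond to handling, 4 rose and 2 fell, and 2 rose without no-Cre replicate 6 or 8. Without no-Cre replicate 7 or 8 or wild-type replicate 2 only 1 fell. Among imprinted growth genes 4 rose and 6 fell, and Dlk1, a paternally expressed Notch ligand relative, read 34.8, 11 and 24.1 CPM against 113, 93.3 and 91.8 CPM (2.09 ± 0.34, adjusted p = 0.00209).

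Many of the largest differences sat in sequences that have near-identical copies. A read from such a gene can be assigned to its copy, so a difference in the copy alone need not be one in transcription. Processed pseudogenes, copies of spliced messages inserted back in the genome, took 0.259%, 0.285% and 0.238% of counts in wild type and 0.0895%, 0.0902% and 0.0886% in no-Cre. Of 590 tested, 127 were lower and 10 higher, and 101 were lower by at least 2-fold. Among 14298 protein-coding genes, 3321 were higher and 3039 lower. In 781 tested genes at least 50% of the 32-base words recur in some other gene of the annotation, and of these 181 were lower and 51 higher.

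Vcp-rs, a processed pseudogene of the ATPase gene Vcp, read 138, 122 and 141 CPM in wild type and 7.09, 6.46 and 6.73 CPM in no-Cre (-4.30 ± 0.10, adjusted p = 1.59e-12). Vcp read 207, 169 and 208 CPM against 338, 332 and 335 CPM (0.78 ± 0.07, adjusted p = 2.85e-06). The sum of Vcp and Vcp-rs was 328 ± 32.6 CPM (SD, n = 3) and 342 ± 3.14 CPM, which differ by less than the wild-type SD. Gm9855 fell by 7.38 ± 0.21 and its parent Tdg, a DNA repair glycosylase gene, rose by 1.31 ± 0.07, while their sum was 78.3 ± 8.59 and 74.1 ± 2.19 CPM. Eif3j2 and Eif3j1, genes for a subunit of an initiation factor, differed by -4.33 ± 0.24 and 1.02 ± 0.09, with sums of 39.3 ± 2.61 and 45.4 ± 2.43 CPM. Gm5506, a copy of the enolase gene Eno1, fell from 125, 124 and 109 CPM to 0.0521, 0.0298 and 0.0686 CPM, and Eno1 did not pass (-0.14 ± 0.07). Here the sum itself was lower, at 908 ± 74.8 and 714 ± 12.7 CPM. Rps2-ps13 read 175, 175 and 0.551 CPM in wild type, where replicate 3 thus differed from the other libraries, and 0.0782, 0.298 and 0.378 CPM in no-Cre.

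Over 122 genes listed as copies that passed with at least a 2-fold difference and had a tested partner, 107 were lower in no-Cre. Not every listed gene is a copy of its partner. Pde2a shared 0.21% of its words with its partner Ascc3, and Hist2h2bb 3.714% with Hist1h2bc. Snora33 and Snord100 are small RNAs that shared 100% of their words with Rps12. Some pairs, such as Hspa1a and Hspa1b, were counted in both directions. The partners of these 107 were higher in 37 cases, lower in 26 and did not pass in 44. The median log2 difference of the 107 copies was -3.38 and that of the sum of copy and partner -0.11. Where the partner is far higher than the copy, the sum stays near the partner whatever the copy does. In wild type, for example, Gm5909 averaged 3.47 CPM and its sum with Zc3h15 192 CPM. The median of the sums therefore cannot show whether reads passed from copy to partner, which was not tested. The pairs were also chosen by their difference, so the numbers are a description.

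**Figure D5:**
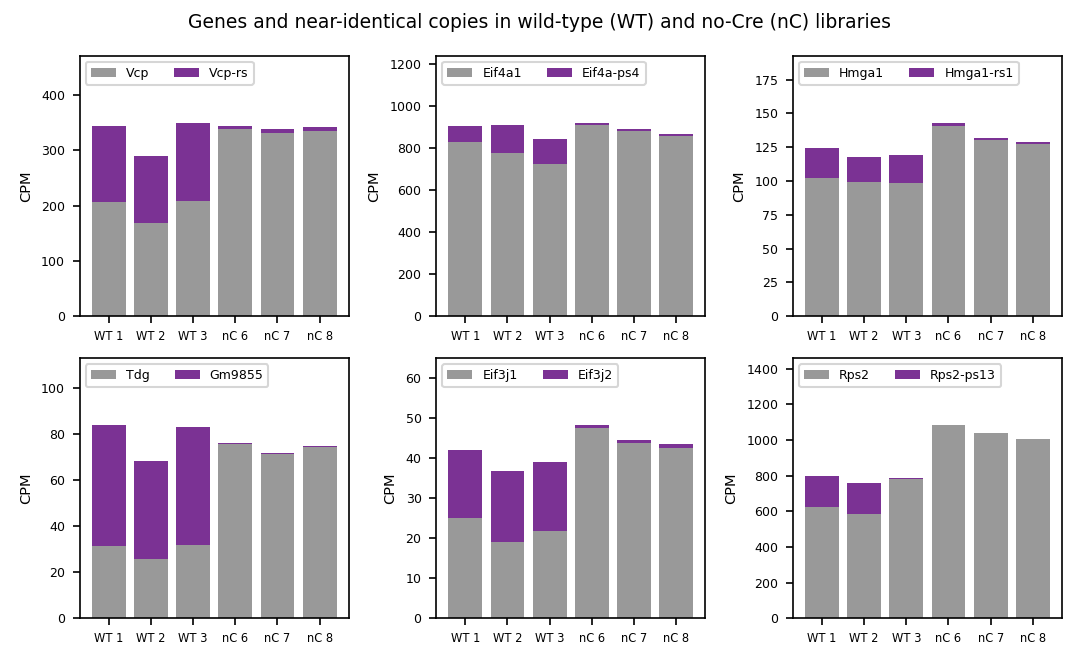
CPM of 6 genes (grey) and of a near-identical copy of each (purple), stacked, in wild-type (WT) and no-Cre (nC) libraries. The purple part is large in wild type and close to 0 in no-Cre, except that Rps2-ps13 is also close to 0 in wild-type replicate 3.

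A few genes were on in one group and off in the other, which means at or over 1 CPM in each library of one and under 0.1 CPM in each of the other. Of these genes, 15 were on in wild type only, 9 of them pseudogenes. Trim12a, a tripartite motif gene of chromosome 7, was the only one on in no-Cre alone, at 1.54, 1.67 and 1.89 CPM against 0 counts in all wild-type libraries, at least 40.6-fold higher with a floor of 3 counts over the group. BC049730 of chromosome 7 read 5.17, 18.1 and 9.55 CPM in wild type and 0 in no-Cre, at least 369-fold lower. Cxcl5, a chemokine gene with little shared sequence (0.815%), read 3.42, 2.76 and 4.59 CPM against 0.0261, 0 and 0 CPM. Trim12a read 1.88 to 2.29 CPM in the Lin28a-induced libraries, and BC049730 had 0 counts there too.

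Further large differences lay in genes without near-identical copies. Grin2c, an NMDA receptor subunit gene, read 0.159, 0.0406 and 0.321 CPM against 7.19, 10.2 and 7.24 CPM (5.58 ± 0.49, adjusted p = 4.36e-06). Adra2b, an adrenergic receptor gene, read 0.398, 0.243 and 0.230 CPM against 11, 10.1 and 7.03 CPM (4.99 ± 0.33, adjusted p = 1.32e-07). Myocd, a cofactor gene of smooth muscle, read 0.994, 2.39 and 1.19 CPM against 25.3, 15.9 and 15.2 CPM (3.62 ± 0.58), while the smooth muscle genes Acta2 and Tagln fell (-1.57 and -1.80). Grik3, a kainate receptor gene, read 9.82, 11.6 and 17.6 CPM against 0.235, 0.387 and 0.206 CPM (-5.53 ± 0.33, adjusted p = 4.52e-08), and Adh7, an alcohol dehydrogenase gene, fell by 4.38 ± 0.42. Slc7a5, an amino acid transporter gene, read 83.2, 78.7 and 86.7 CPM against 220, 219 and 190 CPM (1.34 ± 0.06, adjusted p = 4.35e-09).

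Members of the major histocompatibility complex differed in both directions within the locus. H2-K1, a class I gene, read 21.8, 13.4 and 24.1 CPM against 9.67, 10.5 and 11.4 CPM (-0.91 ± 0.17, adjusted p = 0.00109). H2-D1, another class I gene, read 52.7, 38.2 and 57.7 CPM against 71.9, 72.5 and 97.1 CPM (0.70 ± 0.20, adjusted p = 0.0194). The class II genes H2-Aa and H2-Ab1 differed by -2.69 ± 0.39 and 1.78 ± 0.18. H2-D1 did not pass without no-Cre replicate 8 or wild-type replicate 2.

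The make-up of the libraries differed along further lines. Gm26924, a symbol without an entry in the annotation used, took 0.185%, 0.206% and 0.288% of counts in wild type and 0.671%, 0.553% and 0.322% in no-Cre. The 100 most abundant genes took 15% ± 0.440 and 13.5% ± 0.342, and small nucleolar RNAs 0.0112% ± 0.00227 and 0.00662% ± 0.000450 (exact permutation p = 0.1 each). Genes were also divided into 5 equal bins. The shortest bin by exon length had a median of -0.21, with 9.81% higher and 26.6% lower, and the longest a median of 0.04. By GC content the medians ran from -0.10 in the lowest bin to 0.06 in the highest. By level they ran from -0.26 in the lowest bin to 0.10 in the highest, where 37.8% were higher. With GC and length offsets in the fit, 18 surface ectoderm genes were lower and 14 endothelial genes higher, as without them. The same offsets gave 9 mitochondrial genes and 63 ribosomal protein genes lower (medians of -1.49 and -0.37), and 15 cholesterol genes higher.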

How the data were processed

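Total RNA of microdissected tail bud was extracted with a micro column kit, made into strand-marked libraries and sequenced, per the labels' protocols. The deposited table holds, for each gene symbol, the unnormalised count of reads in every sample. The submitters' processing notes name STAR 2.3.1z4, featureCounts, DESeq2 and mm10, and their roles, the strand setting and the treatment of reads with several matches were not stated there. How reads were split between near-identical genes is thus unknown.

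From the counts, all 10 samples in 3 groups were fitted with edgeR 4.0.16 (R 4.3.3), after filterByExpr on the groups, TMM scaling and a robust quasi-likelihood fit, so that the induced group adds to the estimate of spread. The contrast was no-Cre minus wild type, with Benjamini-Hochberg adjustment over 16340 genes and a threshold of 0.05. SE is the log2 difference divided by the square root of F. Single shares were compared by two-sided exact permutation tests. Correlations are across genes, which are not independent replicates. On simulated counts the fit found 68.7% of genes changed 1.5-fold, 94.0% at 2-fold and 98.5% at 4-fold. The changed genes (67, 67 and 66 of 16340) were drawn only from genes above a minimum mean count. These rates therefore do not cover genes with few counts, and far fewer genes were changed than passed in the data.

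Of the symbols, 35654 matched the GENCODE M21 annotation (GRCm38) by symbol and 1749 by an older symbol, and 1317 did not. Shared sequence is the percent of the distinct 32-base words in all of a gene's transcripts that other genes also hold. Genes named by rule were those of the loci and alleles, Hox13 genes, the 15 largest rises and falls past the threshold with groups apart and at least 1 CPM, up to 4 members of each list by p, 5 per direction by share of counts, and on-off genes. Other named genes were chosen after their values were seen, and some genes are not reported here. The members and lists were chosen with earlier results of these data known. Alternatives covered scaling, filters, DESeq2 1.42.0, limma 3.58.1, GC and length offsets, a sex term and leaving out each sample.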

Additional observations from a re-analysis of the deposited data

How the results depend on the processing

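No paired analysis was possible because the no-Cre and wild-type samples share no replicate number. Leaving out each replicate in turn gave 5550 to 7319 genes past the threshold, 2741 to 3680 higher and 2798 to 3639 lower. Limiting the test to genes with little shared sequence gave 4394, 2199 higher and 2195 lower, with fewer genes tested (10161). Requiring a 2-fold difference as well gave 1839, 739 higher and 1100 lower. Fitting only the 6 samples gave 5661, a sex term 6000, DESeq2 7103, limma-voom 6940, no filter on low counts 6558 and GC and length offsets 6769. Without wild-type replicate 2 and no-Cre replicate 7 together, an alternative chosen after seeing the data, 5500 passed. The named genes were followed through up to 18 of these settings, without the 2-fold requirement. Of 285 named genes past the threshold, 241 passed in every such setting that could test them. In each fit with 1 sample left out 252 passed, and none of 6126 values reversed. Many named genes were chosen for a small p or a large difference in this same contrast. That choice favours passing again in refits of the same libraries, so these counts do not speak for all called genes. Of 2052 counts of list members in other settings, 251 moved by over 1.5 times. Counting error limits genes at or under a few counts, and 3 samples a group limit each list.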
